A study of Homo sapiens with 12 samples.

Results

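The genes described here are 10 cytoskeletal targets of serum response factor (SRF) and its actin-sensing cofactors, the myocardin-related transcription factors (MRTFs): ACTB, TPM1, CNN2, VCL, FHL2, ZYX, ACTA2, TAGLN, CNN1 and MYL9. They were taken by symbol, and each matched 1 of the 57865 features of the deposited table. The study knocked down the mRNA-binding proteins IGF2BP1, IGF2BP2 and IGF2BP3 in ES-2, an established cell line that comes from an ovarian cancer. All 4 groups consisted of siRNA-transfected cells with no labelled genetic change: control siRNAs (siC), or an siRNA pool for IGF2BP1 (siI1), for IGF2BP2 (siI2) or for IGF2BP3 (siI3). Each group held 3 libraries of total RNA depleted of ribosomal RNA. The sources used here do not state the dose or the time after transfection, and 1 cell line was used. It is not labelled whether replicate libraries are separate cultures, so every p-value below reflects only how far these samples spread, which may be technical.

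SRF binds a short DNA element called the CArG box. When actin monomers are taken up into filaments, MRTFs are released from them, enter the nucleus and drive SRF at genes for actin, actin-binding proteins and focal adhesions. A separate group of SRF partners, the ternary complex factors, acts at immediate early genes such as FOS and EGR1. In smooth muscle the cofactor myocardin drives ACTA2, TAGLN, CNN1 and MYL9, while ACTB, VCL, ZYX and TPM1 are also used by most adherent cells.

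CArG boxes in the promoters of the members and of SRF itself are shown because this is the element that SRF binds. The members were chosen by symbol and not by this element. The windows are RefSeq promoters of the GRCh38.p14 build, from 250 bases before to 50 bases after each annotated start, and 7 of the 10 members had one: ACTA2, CNN1, CNN2, FHL2, TPM1, VCL and ZYX. The sequences run 5′ to 3′ along the gene's strand, with the boxes in capitals. The first lies at chr19:1026479-1026568 on the plus strand, 129 to 40 bases before the CNN2 start. The second, at chr2:105438565-105438654 on the minus strand, precedes 2 annotated FHL2 starts, and the third, at chr2:105399091-105399120, lies before a further FHL2 start inside an annotated FHL2 exon. The ACTA2 stretch is chr10:88952795-88952934 on the minus strand, with boxes that each have 1 mismatch to the CArG box. The SRF stretch, chr6:43171199-43171268 on the plus strand, ends 1 base before the start.
CNN2: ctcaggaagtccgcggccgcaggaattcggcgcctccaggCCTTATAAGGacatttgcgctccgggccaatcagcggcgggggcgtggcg
FHL2: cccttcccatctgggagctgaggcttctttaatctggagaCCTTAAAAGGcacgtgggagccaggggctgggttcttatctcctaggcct
FHL2, further start: gcgtgcatctCCTTATATGGtcaaatgaca
ACTA2: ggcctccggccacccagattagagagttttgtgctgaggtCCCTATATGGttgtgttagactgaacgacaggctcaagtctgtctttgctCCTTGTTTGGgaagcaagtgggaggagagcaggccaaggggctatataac
SRF: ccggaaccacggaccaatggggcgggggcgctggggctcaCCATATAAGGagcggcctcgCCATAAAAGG

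An exact CArG box, a 10-base motif whose search along 1 strand covers both, was present in the windows of 2 of the 7 members, CNN2 and FHL2. ZYX and ACTA2 had a box with 1 mismatch, and TPM1, VCL and CNN1 had neither. Over all 27305 genes with windows of the same length, 1.6% held an exact box in at least 1 window and 22.3% held one with at most 1 mismatch. Over all 35116 windows, 1.29% held an exact box. Among the other cytoskeletal SRF targets listed below, 9 of 36 genes with a window held an exact box (25%). SRF held exact boxes 30 and 10 bases before its start. A match describes letters in this window and says nothing about binding in ES-2 cells.

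The libraries held 3274590 to 11110357 reads without the 92 spike-in RNAs. Spike-ins made up 1.71 to 2.68% of reads in siC and 0.742 to 1.59% in the knockdowns. They were not used for scaling here, so the levels below do not compare total RNA between groups. Levels are FPM, the authors' depth-normalized fragment unit, and 3 reads correspond to 0.324 to 0.727 FPM depending on the library. The knockdowns were visible in the targeted mRNAs. IGF2BP1 stood at 43.9 ± 4.52 FPM in siC and 11.1 ± 0.539 in siI1 (SD, n = 3 per group). IGF2BP2 went from 80.0 ± 4.72 to 13.4 ± 5.10 FPM in siI2, and IGF2BP3 from 23.5 ± 5.18 to 4.52 ± 1.76 FPM in siI3. IGF2BP3 was also lower in the other knockdowns, at 13.3 to 17.4 FPM in siI1 and 11.1 to 18.2 in siI2. Every siC library lay above these, at 19.5 to 29.4 FPM. IGF2BP1 was above every siC library in siI2, and so was IGF2BP2 in siI1 and siI3. The groups thus differed in more than the targeted mRNA, and the cause was not tested. In siC replicates 1 and 3, genes of high GC content read lower than in the other libraries. Their slopes were -0.46 and -0.43 log2 units per 10 points of GC, against -0.09 to 0.21 in the other 10 libraries. A value corrected for GC content and transcript length is therefore given beside the called comparisons with siC. The direct comparisons set no knockdown against siC, although the control libraries still enter the spread estimated in the joint fit.

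The members split into an expressed and a barely detected set. Per kilobase of the longest annotated transcript and over all 12 libraries, ACTB, the cytoplasmic beta-actin, led with a mean of 951 FPM per kb. CNN2 followed at 95.9, ZYX at 52.7, VCL at 35.4, TPM1 at 33.1 and FHL2 at 13.5 FPM per kb. The order held in 12 of 12 libraries for ACTB above CNN2, 11 for CNN2 above ZYX, 10 for ZYX above VCL and 9 for TPM1 above FHL2, whose siI3 means were in the reverse order at 14.6 and 19.3 FPM per kb. VCL and TPM1 could not be ranked: VCL was above TPM1 in 7 of 12 libraries, with group means of 40.5 against 26.6 FPM per kb in siC and 42.1 against 49.8 in siI1. The smooth muscle genes lay far below, at 0.934 FPM per kb for ACTA2, 0.619 for CNN1, 0.326 for TAGLN and 0.0215 for MYL9, and FHL2 was above ACTA2 in 12 of 12 libraries.

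**Figure D1:**
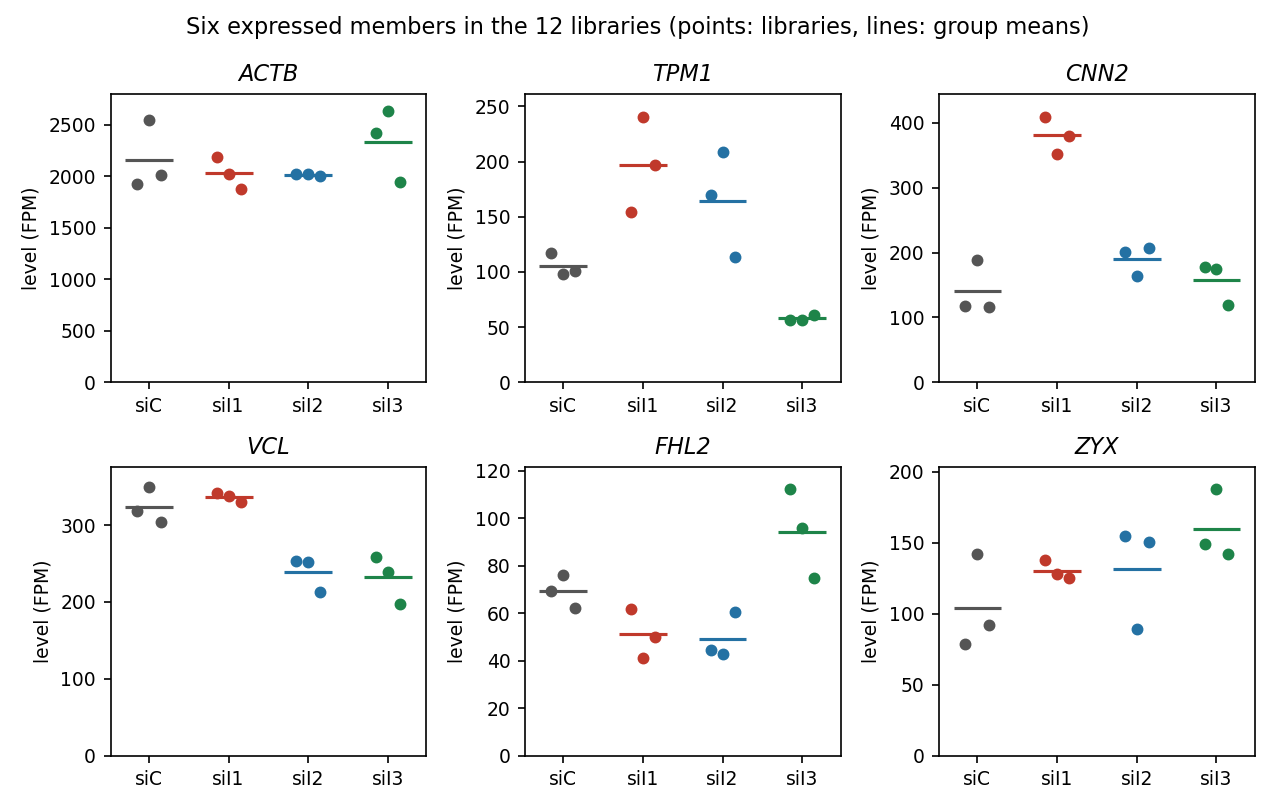
FPM of the 6 expressed members in each of the 12 libraries, grouped by siRNA, with points for libraries and lines for group means. The CNN2 values of siI1 lie between 352 and 409.6 FPM while all other libraries lie between 117 and 207, and the TPM1 values of siI3 lie between 56.0 and 60.6 FPM, below all others.

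CNN2 encodes calponin 2, an actin-binding protein of non-muscle cells, and gave the largest change from siC among the members that were tested. It stood at 118, 188 and 117 FPM in siC and at 409.6, 352 and 381 FPM in siI1. It stood at 201, 164 and 207 FPM in siI2 and at 177, 175 and 119 FPM in siI3. All siI1 libraries were above all 9 others, while siC, siI2 and siI3 overlapped. CNN2 rose in siI1 by a log2 fold change of 1.46 ± 0.22 (SE; limma adjusted p = 0.000915), a 2.76-fold difference on the log2(FPM + 1) scale. After the GC and length correction the change was 1.24 (limma adjusted p = 0.00012). The call was kept in each of 12 fits that left out 1 library, with a highest limma adjusted p of 0.00936. In such fits, here and below, leaving out a library of a group not compared changes only the shared spread, not the estimate. The authors' deposited table lists it with a log2 fold change of 1.43 and an FDR of 0.000366.

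CNN2 was also higher in siI1 than in the other knockdowns. The difference from siI3 was 1.29 ± 0.22 (limma adjusted p = 0.00126), kept in 12 of 12 fits without 1 library. The difference from siI2 was 1.0 ± 0.22 (limma adjusted p = 0.0211). The latter call was lost without siI1 replicate 1, 2 or 3 (limma adjusted p 0.116, 0.0639 and 0.0942), and without siI2 replicate 1 or 2 (0.0537 and 0.0857). Against siC, CNN2 did not pass in siI2, at 0.46 ± 0.22 (limma adjusted p = 0.218), and the value without siC replicate 2, the highest control, was 0.69 (limma adjusted p = 0.0458). In siI3 the estimate was 0.17 ± 0.22 (limma adjusted p = 0.627).

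TPM1 encodes a tropomyosin, which lies along actin filaments and governs the access of myosin and other binding proteins. It stood at 117, 98.1 and 101 FPM in siC, at 154, 240.0 and 197 FPM in siI1, at 169.7, 209 and 114 FPM in siI2 and at 56.7, 56.0 and 60.6 FPM in siI3. The siI1 libraries were above and the siI3 libraries below every control library, and siI2 overlapped siC and siI1. TPM1 rose in siI1 by 0.88 ± 0.22 log2 units (limma adjusted p = 0.0253). It fell in siI3, with a log2 fold change of -0.85 ± 0.22 (limma adjusted p = 0.0274). In siI2 the estimate was 0.59 ± 0.22 (limma adjusted p = 0.14).

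In the TPM1 comparisons with siC, single libraries decided the call while the estimate stayed close. Without 1 library the log2 fold change was 0.72 to 1.04 in siI1 and -0.90 to -0.77 in siI3. The siI1 call was lost without siC replicate 1 or 3 (limma adjusted p 0.0685 and 0.108) and without siI1 replicate 2 or 3 (0.0793 and 0.0954). The siI3 call was lost without siC replicate 1 or 3 (limma adjusted p 0.136 and 0.093) and without siI3 replicate 1 or 2 (0.0906 and 0.104). After the GC and length correction the siI1 value was 1.13 (limma adjusted p = 0.00027), the siI2 value was 0.89 and passed (limma adjusted p = 0.00611), and the siI3 value was -0.49 and did not (limma adjusted p = 0.0597). DESeq2 also called the siI2 difference (adjusted p = 0.033). The authors' deposited table lists TPM1 with an FDR of 0.135 in siI1 and 0.184 in siI3.

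The direct comparisons between knockdowns gave the largest TPM1 differences. TPM1 was 3.32-fold higher in siI1 than in siI3, a log2 difference of 1.73 ± 0.22 (limma adjusted p = 0.000105). It was 2.73-fold higher in siI2 than in siI3, a log2 difference of 1.45 ± 0.22 (limma adjusted p = 0.00189). Both calls were kept in 12 of 12 fits without 1 library. Between siI1 and siI2 the estimate was 0.28 ± 0.22 (limma adjusted p = 0.636).

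FHL2 encodes a LIM-only adaptor that binds actin-linked and nuclear partners, SRF among them. It stood at 69.2, 76.2 and 62.3 FPM in siC, 61.8, 41.3 and 50.1 in siI1, 44.7, 42.8 and 60.4 in siI2 and 112, 95.9 and 74.8 in siI3. The siI3 libraries were above every library of siI1 and siI2. The siC libraries lay between, above all siI1 and siI2 libraries and overlapping siI3. FHL2 was lower in siI1 than in siI3, with a log2 difference of -0.87 ± 0.21 (limma adjusted p = 0.0179), and lower in siI2 than in siI3, at -0.92 ± 0.21 (limma adjusted p = 0.0338).

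No FHL2 difference from siC passed. The log2 fold changes were -0.45 in siI1, -0.49 in siI2 and 0.43 in siI3 (limma adjusted p 0.183, 0.184 and 0.188). The call between siI1 and siI3 was lost without siI1 replicate 2 or 3 (limma adjusted p 0.111 and 0.0687) and without siI3 replicate 1 or 2 (0.0967 and 0.0687). The call between siI2 and siI3 was lost without siI2 replicate 1 or 2 (0.128 each), siI3 replicate 1 or 2 (0.161 and 0.125), siC replicate 1 (0.0503) or siI1 replicate 3 (0.0598). It was also lost in a fit of these 6 libraries alone (0.135). FHL2 therefore differed from CNN2 and TPM1 in order: its highest group mean was siI3, at 94.3 ± 18.8 FPM, where TPM1 had its lowest, at 57.8 ± 2.48 FPM.

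VCL and ZYX encode vinculin and zyxin, proteins of focal adhesions, where actin bundles meet integrins. VCL stood at 318, 349.9 and 304 FPM in siC and 341, 337 and 330.1 in siI1, and at 254, 252 and 212 in siI2 and 259, 239 and 198 in siI3. Every siI2 and siI3 library was below every siC and siI1 library. No VCL difference passed the limma test: against siC the log2 fold changes were 0.06 in siI1, -0.44 in siI2 and -0.49 in siI3 (limma adjusted p 0.86, 0.158 and 0.0782). Corrected for GC and length, the siI2 and siI3 values were both -0.15. VCL in siI1 against siI3 stood at 0.54 ± 0.17 (limma adjusted p = 0.0716), a difference that edgeR placed just past the threshold (adjusted p = 0.0493). DESeq2 called VCL between siI1 and siI3, between siI1 and siI2 and in siI3 against siC (adjusted p 0.00073, 0.0148 and 0.00873).

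ZYX stood at 78.6, 142 and 91.8 FPM in siC, 138, 128 and 125 in siI1, 155, 89.5 and 151 in siI2 and 149, 188 and 142 in siI3. The siI3 libraries were all at or above the highest control, and the siC and siI2 libraries spread widely. The siI3 difference from siC, 0.65 ± 0.24, did not pass (limma adjusted p = 0.0908). It was 0.89 and passed without siC replicate 2 (limma adjusted p = 0.0191), and it was 0.20 after the GC and length correction. DESeq2 called it (adjusted p = 0.0475). ZYX has the highest GC content of the 6 expressed members, 64.9% of its longest transcript.

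ACTB, often used as a reference gene, stood at 1925, 2545 and 2013 FPM in siC and 2192, 2019 and 1879 in siI1, and at 2027, 2021 and 2002 in siI2 and 2423, 2634 and 1949.8 in siI3. The 4 groups overlapped. The log2 fold changes from siC were -0.08 in siI1, -0.09 in siI2 and 0.11 in siI3, each with an SE of 0.23 (limma adjusted p 0.847, 0.848 and 0.768). Annotated pseudogenes by symbol number 10 for ACTB and 12 for CNN2, and the sources used here do not state how reads were shared between such copies, so both genes carry that uncertainty.

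**Figure D2:**
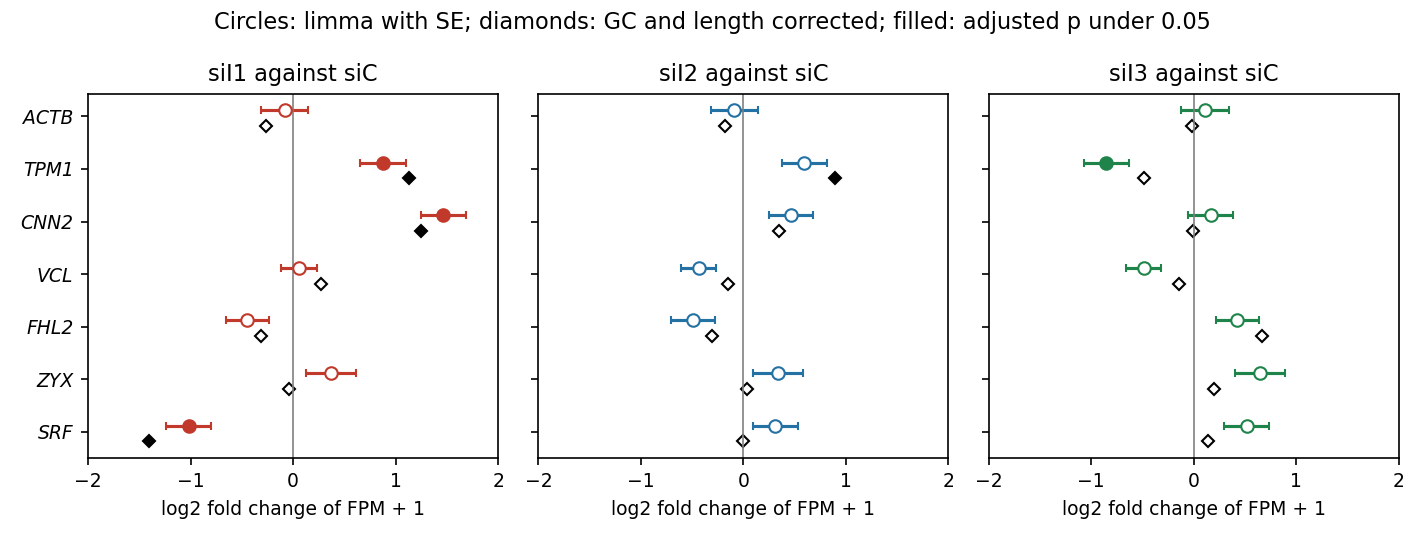
Log2 fold change against siC of the 6 expressed members and SRF, with circles for the limma estimate ± SE on log2(FPM + 1), diamonds for the value corrected for GC content and length, and filled symbols for an adjusted p below 0.05. CNN2 and TPM1 lie above 0 in siI1 with both estimates filled, SRF lies below 0 in siI1, and the TPM1 circle in siI3 is filled while its diamond is not.

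The 4 members best known from smooth muscle were near the limit of detection. ACTA2, smooth muscle alpha-actin, had 17, 7 and 13 reads in siC, 11, 11 and 10 in siI1, 4, 2 and 3 in siI2 and 12, 6 and 6 in siI3. TAGLN, the actin-binding protein transgelin, had 2, 6 and 3 reads in siC, 9, 7 and 5 in siI1, 4, 2 and 9 in siI2 and 11, 5 and 15 in siI3. CNN1, calponin 1, had 4, 8 and 6 reads in siC, 11, 10 and 2 in siI1, 26, 3 and 1 in siI2 and 4, 4 and 3 in siI3. MYL9, a regulatory light chain of myosin, had no read in 9 of the 12 libraries and 1 or 2 in the rest. The highest CNN1 value came from 1 library, siI2 replicate 1, at 5.54 FPM against 0.551 and 0.242 FPM in the other siI2 libraries.

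TAGLN and MYL9 did not pass the filter on low reads and were not tested, so tests cover 8 of the 10 members. ACTA2 and CNN1 passed the filter, and neither was called in any comparison. For ACTA2 the estimate against siC was -0.57 ± 0.31 in siI2 (limma adjusted p = 0.28), and for CNN1 it was 0.45 ± 0.49 (limma adjusted p = 0.609). ACTA2 overlaps ACTA2-AS1, STAMBPL1 and FAS on the opposite strand, TAGLN overlaps PCSK7 and TPM1 overlaps TPM1-AS. The sources used here do not state whether counting used strand, so reads of such pairs cannot be told apart.

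**Figure D3:**
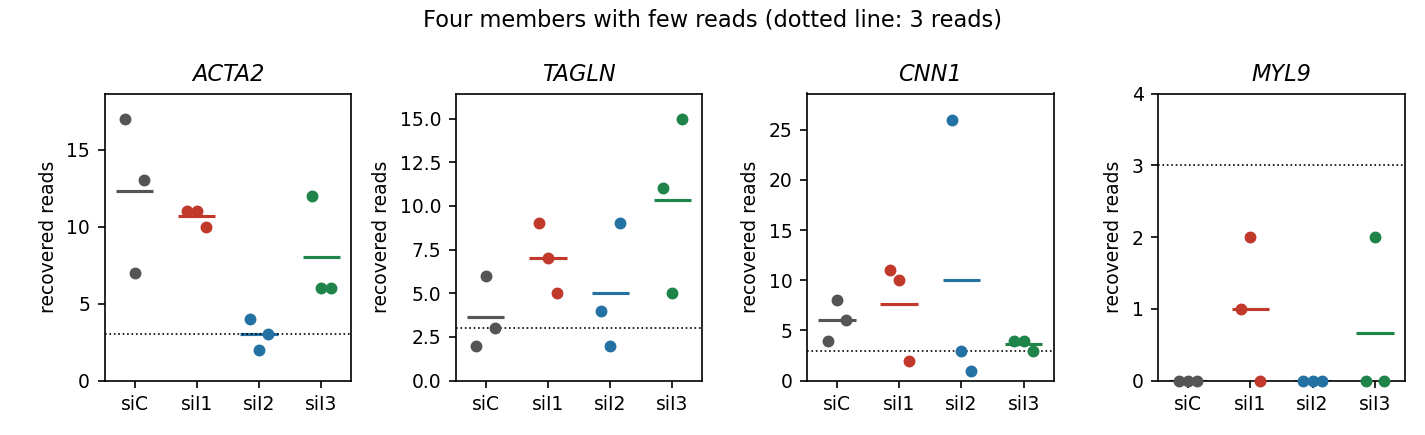
Recovered reads of ACTA2, TAGLN, CNN1 and MYL9 in each library, with the dotted line at 3 reads. ACTA2 lies at 2 to 4 reads in siI2 and 6 to 17 elsewhere, and a single siI2 library holds 26 CNN1 reads.

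Counted over the 8 tested members, 2 rose and none fell in siI1 (CNN2 and TPM1), where 3.77% of all 13782 tested genes were called higher, 4.42% lower and 8.18% in either direction. None was called in siI2 by limma, against 0.573% of all genes called higher, 0.936% lower and 1.51% in either direction. In siI2, 4 members had an unadjusted limma p under 0.05. There edgeR called 0 members, beside 185 over all genes, and DESeq2 called 1 member, beside 716. In siI3, 0 rose and 1 fell (TPM1), where 2.30% of all genes were called higher, 8.29% lower and 10.6% in either direction. For the 0 higher members in siI3, DESeq2 called 3 members in either direction and edgeR called 1, beside 2296 and 1370 over all genes. An unadjusted limma p under 0.05 was held by 3 members. The share of all genes under that unadjusted p was not computed, so such counts, here and below, are a description. The median log2 fold change of the tested members was 0.24 in siI1, 0.13 in siI2 and -0.02 in siI3, beside -0.05, -0.09 and -0.05 over all genes. The 3 comparisons share the siC libraries.

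In the direct comparisons, 1 member was higher in siI1 than in siI2 (CNN2), where 1.63% of genes were called higher, 0.769% lower and 2.40% either way. Between siI1 and siI3, CNN2 and TPM1 were higher and FHL2 lower, 3 of 8, where 4.57% of genes were called higher, 2.47% lower and 7.05% either way. Between siI2 and siI3, TPM1 was higher and FHL2 lower, 2 of 8, where 1.26% of genes were called higher, 0.740% lower and 2.00% either way.

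The regulators were examined next, to set the members beside the level of their own transcription factor. SRF mRNA stood at 57.9, 91.2 and 73.5 FPM in siC, 40.2, 29.6 and 37.4 in siI1, 108, 75.7 and 91.7 in siI2 and 118, 118 and 82.4 in siI3. All siI1 libraries were below the 9 others. SRF fell in siI1 with a log2 fold change of -1.02 ± 0.22 (limma adjusted p = 0.0111), and this call was lost without siC replicate 3 (0.0535). Corrected for GC and length it was -1.41 (limma adjusted p = 1.53e-05). SRF was also lower in siI1 than in siI2, at -1.33 ± 0.22 (limma adjusted p = 0.00352), and than in siI3, at -1.54 ± 0.22 (limma adjusted p = 0.00029), both kept in 12 of 12 fits without 1 library. Its estimates in siI2 and siI3 against siC were 0.31 and 0.52 (limma adjusted p 0.414 and 0.13), and the siI3 value was 0.14 after the GC and length correction. Without siI3 replicate 3 the siI3 difference passed (limma adjusted p = 0.0404). The authors' deposited table lists SRF in siI1 with a log2 fold change of -1.05 and an FDR of 0.0366. In siI1 the group mean of SRF was thus lowest while those of CNN2 and TPM1 were highest. For TPM1 this is an order of means only, since its siI1 and siI2 libraries overlapped. A relation between these genes was not tested.

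MRTFA, the actin-binding cofactor, stood at 17.9 ± 4.92 FPM in siC, 28.7 ± 3.8 in siI1, 24.8 ± 3.6 in siI2 and 22.2 ± 4.93 in siI3 (SD, n = 3). Its siI1 estimate was 0.67 ± 0.24 (limma adjusted p = 0.0817), passed without siC replicate 2 (limma adjusted p = 0.0206), and was 0.27 after the GC and length correction. MRTFB, its close relative, stood at 5.63 ± 0.46, 5.46 ± 1.19, 7.53 ± 3.98 and 5.74 ± 1.63 FPM in the same order, with no call. MYOCD, the gene of myocardin, had at most 2 reads in any library. Of the 3 ternary complex factor genes, ELK3 was lower in siI2 than in siI3, at -1.47 ± 0.33 (limma adjusted p = 0.0277). This call was lost without siI2 replicate 1 or 2 or siI3 replicate 1 or 2 (limma adjusted p 0.0994 to 0.136). Of 6 tested regulators, none was called in siI2 or siI3 against siC by limma, edgeR or DESeq2, with 0 and 2 at an unadjusted limma p under 0.05.

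A list of 40 other cytoskeletal targets of SRF and MRTFs, 36 of them tested, showed movement in both directions. In siI1, 6 rose and 2 fell, in siI2 none rose and 3 fell, and in siI3, 2 rose and 4 fell, to be read beside the shares of all genes given above. These 8, 3 and 6 calls depended on single libraries: 2 were called in siI1 without siC replicate 1 or 3 or siI1 replicate 1 or 3, none in siI2 without siC replicate 1 or 3 or siI2 replicate 1 or 3, and 2 in siI3 without siC replicate 1 or 3 or siI3 replicate 1, or 3 without siI3 replicate 2. The siI2 count was 8 without siC replicate 2 and 5 without siI2 replicate 2, and the highest counts in siI1 and siI3 were 10 and 9. The calls over all genes moved in the same fits. Where the list counts dropped as listed, they were 268 to 332 in siI1, 28 to 63 in siI2 and 89 to 215 in siI3. The main fit gave 1128, 208 and 1460. In siI2 they were 1572 without siC replicate 2 and 1414 without siI2 replicate 2. After the GC and length correction the list counts were 7, 2 and 5. The median log2 fold changes were 0.24, -0.05 and -0.02. TUFT1, the gene of tuftelin, rose in siI1 from 19.1 ± 2.32 to 76.2 ± 4.10 FPM (SD, n = 3), with a log2 fold change of 1.95 (limma adjusted p = 0.000312). PDLIM1, a PDZ and LIM scaffold protein of actin bundles, rose from 54.7 ± 4.27 to 113 ± 20.7 FPM, at 1.02 (limma adjusted p = 0.00648). Both calls were kept in 12 of 12 fits without 1 library, and the corrected values were 1.94 and 1.0.

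ACTG1, the other cytoplasmic actin, rose in siI1 from 2772 ± 566 to 5487 ± 475 FPM, at 1.0 (limma adjusted p = 0.0432). Unlike ACTB, its siI1 libraries lay above all control libraries, although a test of the difference between both actins was not made. The ACTG1 call was lost without any siI1 library, siC replicate 1 or 3, siI2 replicate 2 or siI3 replicate 1 (limma adjusted p 0.0508 to 0.189), and the corrected value was 0.73 (0.0336). FERMT2, which encodes an integrin activator of the kindlin family, fell at -1.31 (limma adjusted p = 0.0215). That call was lost without siC replicate 1 or 3 or siI1 replicate 1 or 3 (0.0714 to 0.129) and after the GC and length correction, where it stood at -0.71 (0.0759).

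In siI3 the same list included falls of TUFT1 to 5.81 ± 2.55 FPM, at -1.63 (limma adjusted p = 0.00225), and of PDLIM1 to 27.5 ± 5.08 FPM, at -0.98 (limma adjusted p = 0.013). SVIL, the gene of supervillin, which links actin to the membrane, fell there from 41.3 ± 2.24 to 16.2 ± 1.77 FPM, at -1.30 (limma adjusted p = 0.00125). MYL12B, a regulatory light chain of non-muscle myosin, fell at -1.27 (limma adjusted p = 0.014). Corrected for GC and length, the 4 stood at -1.51, -0.90, -1.19 and -1.02, all called. The TUFT1 and SVIL calls were kept in 12 of 12 fits without 1 library. PDLIM1 was lost without siC replicate 1 or 3 or siI3 replicate 1 or 2 (0.0504 to 0.0695), and MYL12B without siC replicate 1 or 3 or siI3 replicate 1 (0.053 to 0.0888). Against siC, MYL12B was also called lower in siI1 (limma adjusted p = 0.0415), and SVIL was called higher there (0.0221). These siI1 calls were kept in 5 and 8 of 12 fits without 1 library. MYL12B was thus called lower in each knockdown, in comparisons that share the siC libraries.

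In siI2 the 3 falls were MYL12B at -1.37, PDLIM5, another PDZ and LIM protein, at -1.10 and SVIL at -0.98 (limma adjusted p 0.019, 0.0471 and 0.0142). MYL12B and SVIL were lost without siC replicate 1 or 3 or siI2 replicate 1 or 3 (limma adjusted p 0.0844 to 0.125 for MYL12B and 0.06 to 0.105 for SVIL). PDLIM5 was kept in 3 of 12 fits without 1 library, with limma adjusted p of 0.0596 to 0.169 in the fits that lost it. After the GC and length correction MYL12B stood at -1.18 and SVIL at -0.94 (limma adjusted p 0.0164 and 0.00393), while PDLIM5 stood at -0.58 and did not pass (0.347).

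In the direct comparisons of that list, the called genes lay in 1 direction, which was also the more frequent one over all genes. Between siI1 and siI3, 4.57% of all genes were called higher and 2.47% lower. The shares were 1.63% and 0.769% between siI1 and siI2, and 1.26% and 0.740% between siI2 and siI3. Estimates of the whole list went both ways: in the same order, 21, 28 and 15 of 36 were above 0, with medians of 0.11, 0.27 and -0.09. Between siI1 and siI3, 7 of 36 were higher in siI1 and none lower, led by TUFT1 at 3.58 (limma adjusted p = 1.76e-07), SVIL at 2.05 (3.39e-06), PDLIM1 at 2.00 (1.09e-05) and FHL1, a muscle-enriched relative of FHL2, at 1.21 (0.0079). The FHL1 call was lost without siI3 replicate 1 (limma adjusted p = 0.0507). TUFT1 and SVIL were also higher in siI1 than in siI2, at 2.12 and 1.72 (limma adjusted p 0.000254 and 9.74e-05), as 2 of 36. TUFT1 and PDLIM1 were higher in siI2 than in siI3, at 1.46 and 1.22 (0.00448 and 0.00316), as the 2 called of 36. An unadjusted limma p under 0.05 was held by 15, 7 and 16 of the 36 in these 3 comparisons, in either direction. These are not calls, and the share of all genes at that threshold was not computed. TPM1 and PDLIM1 thus had the same order of group means in the knockdowns, siI1 above siI2 above siI3, while FHL1 and FHL2, relatives in sequence, were called in opposite directions between siI1 and siI3.

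**Figure D4:**
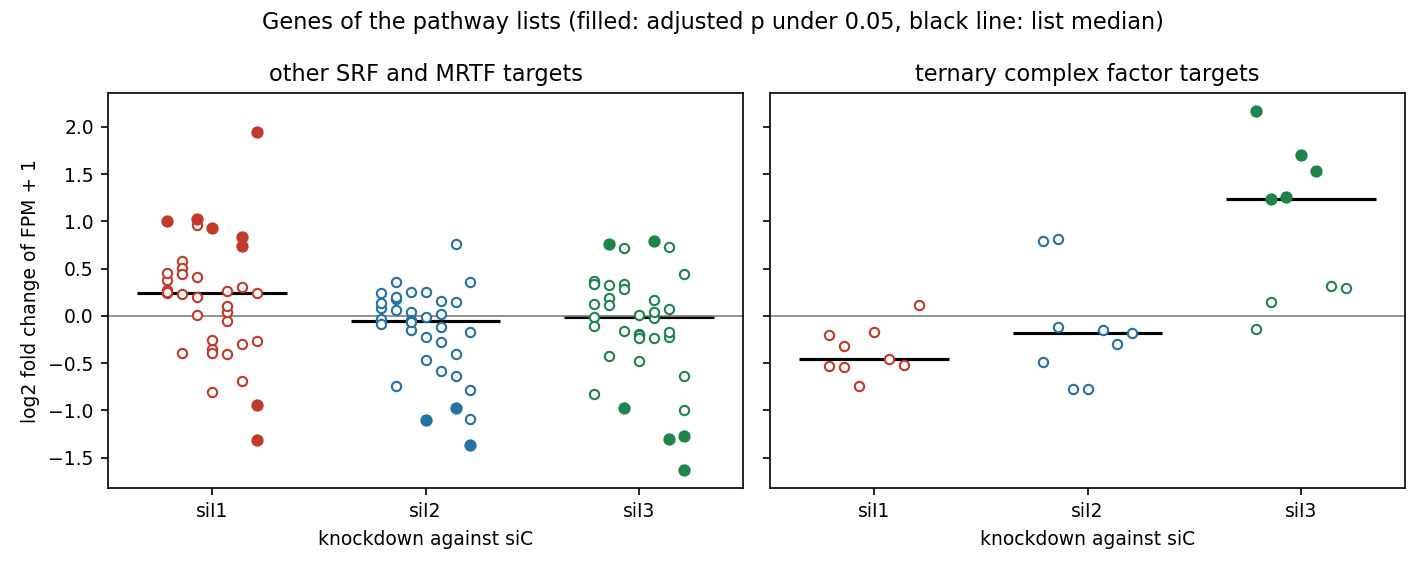
Log2 fold change against siC of each tested gene in the lists of other cytoskeletal targets and of ternary complex factor targets, with filled points for an adjusted p below 0.05 and a black line at the list's median. The ternary complex factor targets have 5 filled points above 0 in siI3 and no filled point in siI1 or siI2. ARC and FOSB are among the 5 and passed the filter on low reads only through the siI3 libraries.

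Of the ternary complex factor targets of SRF, 9 of 11 were tested. In siI3, where 2.30% of all genes were called higher and 8.29% lower, 5 of these targets were called higher and none lower. They were ARC at 2.16, FOS at 1.70, FOSB at 1.53 and EGR1 at 1.26 (limma adjusted p 0.002, 0.00772, 0.00772 and 0.0171), and DUSP1 at 1.24 (0.015), which is named because the count is small. Levels of the first 4 were low: FOS went from 1.94 ± 0.576 to 8.58 ± 2.15 FPM and EGR1 from 2.33 ± 0.733 to 6.83 ± 0.458 FPM. ARC and FOSB passed the filter on low reads only through the siI3 libraries, ARC with 0 to 9 reads elsewhere and 24 to 48 in siI3. Their calls, here and in the direct comparisons below, are therefore given as a description. The same holds for the counts that include them, 5 here and 6 and 4 in the direct comparisons with siI3. The called genes in siI3 that did not enter in this way are FOS, EGR1 and DUSP1. After the GC and length correction ARC stood at 1.67, FOS at 1.70, FOSB at 1.27, EGR1 at 1.10 and DUSP1 at 1.12, with limma adjusted p of 0.00567 to 0.0252. Without 1 library the count of 5 became 1 without siC replicate 1 or siI3 replicate 2, 2 without siC replicate 3 and 3 without siI3 replicate 1. Over all genes the calls in these fits were 89, 156, 111 and 215 in this order, against 1460 in the main fit. FOS, FOSB, EGR1 and DUSP1 were lost without siC replicate 1 (all 4), siC replicate 3 (FOS, EGR1 and DUSP1), siI3 replicate 2 (all 4) or siI3 replicate 1 (EGR1 and DUSP1), with limma adjusted p of 0.0504 to 0.0552 for FOS, 0.0534 to 0.0544 for FOSB, 0.0645 to 0.11 for EGR1 and 0.0719 to 0.0883 for DUSP1.

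In siI1 and siI2 none of these 9 was called against siC by limma or edgeR. DESeq2 called 0 and 1 of them, beside 2014 and 716 over all genes, and 3 and 4 had an unadjusted limma p under 0.05. After the GC and length correction 2 were called lower in siI1, EGR1 at -0.97 (limma adjusted p = 0.0402) and IER2 at -0.89 (0.00865), which is named because the count is small, and 0 in siI2. Directly, 6 were lower in siI1 than in siI3, where 2.47% of all genes were called lower and 4.57% higher. Among them were ARC at -2.37 (limma adjusted p = 0.000216), EGR1 at -2.0 (0.000254), FOSB at -1.99 (0.000275) and FOS at -1.87 (0.00124). The EGR1 and FOS calls were kept in 12 of 12 fits. Between siI2 and siI3, 0.740% of all genes were called lower and 1.26% higher. Of the 9 targets 4 were lower there: FOS at -2.47 (limma adjusted p = 0.000329), EGR1 at -2.03 (0.00067), FOSB at -1.68 (0.00402) and ARC at -1.37 (0.0406). The last was kept in 2 of 12 fits without 1 library (0.0548 to 0.167 where lost) and stood at 0.0571 after the GC and length correction. DUSP1 was lower in siI1 than in siI2, at -1.14 (limma adjusted p = 0.0324), and was lost without any library of those 2 groups (0.0604 to 0.188).

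Markers of other cell types were read in the same libraries, since bulk RNA cannot tell fewer cells of a type from less RNA per cell. All libraries come from the ES-2 cell line, and no cell type is assigned from these genes. Of 8 smooth muscle markers, DES, LMOD1, MYOCD and KCNMB1 were below 1 FPM in every library. The summed level was 227 to 394 FPM in siC, 155 to 174 in siI1, 301 to 422 in siI2 and 353 to 560.4 in siI3, most of it SMTN, the gene of smoothelin. That sum was lowest in siI1, as SRF was, and its part in the result was not tested. Of 5 fibroblast markers, LUM was below 1 FPM throughout, and the sum, led by THY1, was 117 to 157 FPM in siC, 558 to 671 in siI1, 262 to 367 in siI2 and 108 to 158 in siI3. Nearly all of that sum was THY1, at 106 to 151 FPM in siC and 545 to 661 in siI1, while PDGFRA stood at 4.42 to 8.70 FPM in siC and 5.12 to 8.96 in siI1 and COL1A2 at 1.19 to 2.30 and 2.02 to 3.20 FPM. THY1 thus moved with CNN2 and TPM1 in siI1, and its part in their changes was not tested. Endothelial markers, of which 3 of 4 were read and only CDH5 exceeded 3.15 FPM, summed to 55.5 to 73.1 FPM in siC, 135 to 150.0 in siI1, 110.1 to 128 in siI2 and 97.3 to 109.9 in siI3. The epithelial markers EPCAM (at most 0.97 FPM) and CDH1 (at most 1.10 FPM) were near 0 in an ovarian cancer line. The sum of the 6 epithelial and ovarian carcinoma markers was 155 to 267 FPM in siC, 405 to 535 in siI1, 254 to 338 in siI2 and 155 to 198 in siI3. It was made up mostly of KRT8, at 36.6 to 52.7 FPM in siC and 131 to 162 in siI1, and KRT18, at 115 to 213 and 271 to 371 FPM. Both keratins thus moved with CNN2 and TPM1 in siI1, and their part in the result was not tested. PTPRC and CD3E of leukocytes and ACTA1, ACTC1 and MYOG of striated muscle were below 1 FPM in every library.

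The protein-coding genes whose pattern over the 12 libraries was most like the mean of the members' standardized values were IDH3G and NRM (Pearson r = 0.94 each), FOXRED2 and EFEMP2 (0.93 each) and TMEM175 (0.92). They are the top 5 of 8342 candidates with a mean of at least 5 FPM, all read from the same libraries, and the correlation is a description. That mean weighs all 10 members equally. It includes ACTA2, TAGLN, CNN1 and MYL9, with 102, 78, 82 and 5 reads over all libraries. It also averages members with opposite orders of groups, such as TPM1 and FHL2. A likeness to it is therefore not a likeness to a pattern shared by the members.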

How the data were processed

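Total RNA of 12 libraries was analysed, 3 per siRNA group, and the titles gave each library's group and replicate. Per the submitters' processing notes, the tools were cutadapt 1.6, TopHat2 2.0.13, featureCounts 1.4.6 and edgeR 3.12, with the hg19 build. The sources used here do not state the strand setting, filters or annotation release. The deposited table holds FPM, a signal normalized by the authors for library depth. It also holds the authors' log2 fold changes and their FDR (adjusted p-value), deposited for each knockdown against siC and quoted only as such. Values were whole multiples of 1 read (0.108 to 0.242 FPM) for 100% of values within a tolerance of 0.01, which recovered the reads. The labels' treatment text speaks of parental cells, while titles and siRNA labels give the groups.

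Differences were tested with limma 3.58.1 (trend option) on log2(FPM + 1), a scale that understates the changes of low genes, in a single fit of all 12 libraries by group. Genes were filtered on recovered reads (filterByExpr, minimum count 10), which left 13782, and spike-ins were left out. P-values were adjusted by Benjamini-Hochberg over all genes tested, and a gene was called below 0.05. The floor was 3 reads, for counting error only. Alternatives were edgeR 4.0.16 and DESeq2 1.42.0 on recovered reads (R 4.3.3), other scaling factors, pseudocounts of 0.25 and 4, no filter, only the 6 libraries compared, a replicate block, each library left out in turn, and a loess correction (span 0.5) for GC content and length of the longest GENCODE transcript, possible for 13361 genes. Only the limma fit of siI1 against siC was tried on simulated data, which held no GC slope between libraries. The other comparisons and the alternatives were not simulated.

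All members are named. From each list, up to 4 called genes per comparison whose higher group averages 5 FPM or more are named by size of change, and SRF, MRTFA and MRTFB always. The members and lists were chosen with earlier results of these data known. Promoters came from RefSeq and were searched for the CArG box in each 300-base window. A further list of pathway genes and 1 marker gene are not reported here.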

Additional observations from a re-analysis of the deposited data

How the results depend on the processing

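The number of members called depended on the setting. Without a filter on low reads, where more features share the adjustment, 1 was called in siI1 against siC in place of 2, 0 in siI3 in place of 1, 0 between siI1 and siI2 in place of 1 and 1 between siI2 and siI3 in place of 2. DESeq2 called 1 in siI2, 3 in siI3 and 2 between siI1 and siI2, beside 716, 2296 and 544 over all genes. The GC and length correction gave 1 in siI2 and 0 in siI3. Leaving out 1 library at a time gave 1 to 2 in siI1, 0 to 1 in siI2, 0 to 2 in siI3, 0 to 1 between siI1 and siI2, 2 to 3 between siI1 and siI3 and 1 to 2 between siI2 and siI3. Between siI1 and siI3 the count of 3 was 2 without a filter and 4 with edgeR, DESeq2, RLE or upper-quartile factors. A fit of only the 6 libraries compared gave 1 between siI2 and siI3. The cause was not tested beyond what each setting changes. In the 9 member calls, the sign was kept in all 23 alternatives. Several of these could not change it. The estimate stays the same without a filter, with only the 6 libraries compared, with the replicate block alone, or without a library of a group that is not compared.

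Over all genes, the calls ranged with the setting from 268 to 2602 in siI1 (main 1128), 28 to 1572 in siI2 (208) and 89 to 2824 in siI3 (1460). Between knockdowns they ranged from 127 to 654 for siI1 and siI2 (331), 546 to 1562 for siI1 and siI3 (971) and 91 to 557 for siI2 and siI3 (276).

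Replicate numbers did not pair the libraries: same-numbered libraries correlated at -0.45 to 0.45, with 7 of 18 pairs above 0.1, and 1 of 12 libraries correlated best with its own number. With the replicate number as a block, 1 member was called between siI2 and siI3, and with the block and the GC and length correction together 1 in siI2 and 0 in siI3. Depth limits ACTA2, TAGLN, CNN1 and MYL9, which hold 102, 78, 82 and 5 reads over all libraries.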
